A study of Mus musculus with 7 samples.

Results

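The IRG and GBP genes described here encode interferon-induced GTPases: Iigp1, Irgm1, Irgm2 and Igtp of the immunity-related GTPases (IRGs), and Gbp2, Gbp3, Gbp6, Gbp7 and Gbp9 of the guanylate-binding proteins (GBPs). They are 9 of the 26286 genes in the deposited count table and were found there by Entrez identifier. They were selected on their measured counts in these libraries, in which members of both families had already been seen at lower levels in mutant than in wild type samples. Their difference between genotypes is therefore a description, with no test, and it supports nothing by itself.

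The libraries were made from polyA RNA of cortical neurons. The embryos were male, of the C57BL/6 strain and of age E16.5; 3 were wild type and 4 were KAT7 mutant. KAT7 belongs to the MYST group of enzymes that acetylate histones. The labels do not give the allele, or any promoter or Cre driver, behind the mutation, and they name no interferon treatment or infection in either genotype. The design text describes the replicates as separate mice.

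IRG and GBP proteins belong to the cell's own defence against intracellular pathogens. Interferon gamma induces most of them strongly, and many also respond to type I interferon. Irgm1, Irgm2 and Igtp (also called Irgm3) are regulatory IRGs that sit on host membranes and hold effector IRGs such as Iigp1 (also called Irga6) in their inactive, GDP-bound state. Effector IRGs and GBPs assemble on the vacuoles of parasites and bacteria and disrupt them, and GBPs also promote inflammasome activation. In brain tissue they are known mainly from infection and inflammation, where glia and neurons can express them.

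The promoters of the regulatory IRGs and of 3 GBPs are shown first because they carry the element through which these genes are usually described as interferon targets. Spaced repeats of GAAA bind interferon regulatory factors (the interferon-stimulated response element, ISRE), and a TTC to GAA palindrome is the core of the gamma-activated site (GAS). Promoter windows came from RefSeq (GRCm38.p6) and had 300 bases, 250 before and 50 after an annotated start. They were examined for 6 of the 9 genes: Gbp2, Gbp3, Gbp7, Irgm1, Irgm2 and Igtp. No window was examined for Iigp1, Gbp6 or Gbp9, so their promoters are not described here. Both strands were searched for an ISRE-type core, written here as the GAAA repeat (GAAA, any 2 bases, then GAAA again), and for TTCNNNGAA, a GAS-type core whose ends are palindromic. The stretches below are 5′ to 3′ in the direction of the gene, with each match to the GAAA repeat, or to its reverse complement, in capitals.
Gbp7 (chr3:142530263-142530312, + strand): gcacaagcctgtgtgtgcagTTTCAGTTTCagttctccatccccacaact
Gbp3 (chr3:142559979-142560034, + strand): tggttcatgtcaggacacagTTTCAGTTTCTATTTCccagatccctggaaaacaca
Gbp2 (chr3:142620584-142620633, + strand): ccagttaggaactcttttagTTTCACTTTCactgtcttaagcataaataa
Irgm1 (chr11:48871421-48871470, - strand): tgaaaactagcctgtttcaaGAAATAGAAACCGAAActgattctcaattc
Igtp (chr11:58199502-58199551, + strand): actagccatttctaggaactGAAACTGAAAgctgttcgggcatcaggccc
Irgm2 (chr11:58214893-58214942, + strand): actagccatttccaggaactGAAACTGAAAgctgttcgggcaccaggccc

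The 6 genes examined all held the GAAA repeat, in 6 of their 7 windows. Of 32851 mouse promoter windows of the same length, 1131 (3.44%) held it. Whether the repeat is present in the members without an examined window was not tested. Gbp3 has 2 annotated starts, and the window of the other start held no match. In Irgm1 and in Gbp3 a pair of matches overlapped, so that GAAA, or TTTC as read along the gene, stood 3 times in a row. The 3 GBPs carried the core as its reverse complement and the 3 IRGs carried it in the gene's own direction. Matches lay between 64 and 15 bases before the start, closest in Irgm1 (bases -30 to -15) and farthest in Irgm2 (bases -64 to -55). A match is a description of letters and not evidence of a bound site.

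The TTCNNNGAA core was found in 3 of the 6 genes, against 2726 of 32851 windows (8.30%). Gbp7 held 2 matches (bases -106 to -98 and -87 to -79), Igtp held 1 (bases -45 to -37) and Irgm2 held 1 (bases -75 to -67), and none overlapped a match to the GAAA repeat. The Igtp and Irgm2 windows, from neighbouring genes, shared an identical run of 61 bases. It began at base -11 in Igtp and base -41 in Irgm2, after the matches to both cores. The stretches shown for Igtp and Irgm2 are also much alike, so their matches are not independent. The longest run shared by Gbp3 and Gbp7 was 13 bases. Both cores were thus present in Gbp7, Igtp and Irgm2, and the GAAA repeat alone in Irgm1, Gbp2 and Gbp3. In the first set the log2 fold changes of mutant over wild type were -1.80 (Gbp7), -0.68 (Igtp) and -0.47 (Irgm2, not called). In the second they were -1.84 (Irgm1) and -2.70 (Gbp3), and Gbp2 had too few counts for a test. Whether either core goes with the difference between genotypes was not tested.

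**Figure D1:**
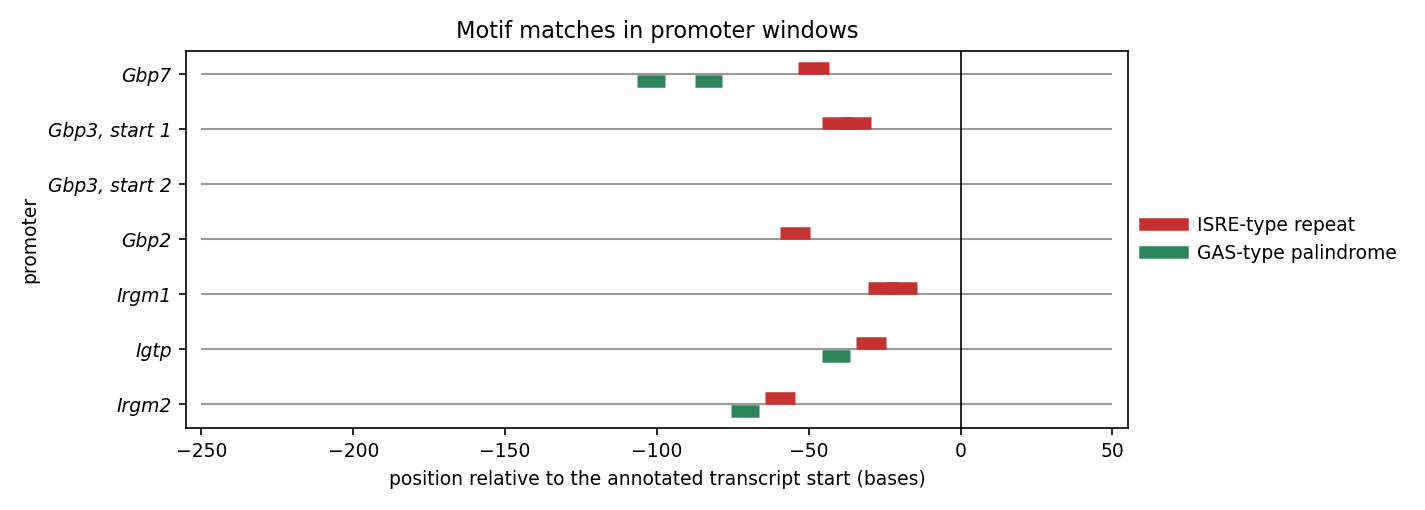
Positions of motif matches in the 7 promoter windows of 6 IRG and GBP genes; the x axis gives bases from the annotated transcript start (at 0, vertical line) and each grey line is 1 window. Red bars (ISRE-type GAAA repeat) lie within 64 bases of the start in 6 windows, and green bars (GAS-type palindrome, TTCNNNGAA) occur in Gbp7, Igtp and Irgm2.

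Library totals ranged from 8272487 to 8813060 counts, and 13681 genes passed the filter on low counts. Kat7 was at 98.8 ± 3.66 CPM (counts scaled to a common library size; SD, n = 3) in the wild type libraries, and the mutant libraries, at 0.597 ± 0.419 CPM (SD, n = 4), matched their labels. Summed CPM of 12 markers of excitatory cortical neurons was 10680 to 11473 in wild type and 10689 to 11311 in mutant libraries, with 4 markers called lower and 4 higher. Mutant replicate 1 stood apart from the other 3 mutants on the second principal component (23.1, against -9.75 to 1.64 for the other 6 libraries). Of the tested genes, 15.8% were called lower and 13.1% higher in mutants (edgeR quasi-likelihood test, Benjamini-Hochberg adjusted p under 0.05), and in 18.8% every mutant library was below every wild type library.

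The comparison of genotypes asks how these GTPase transcripts differ in libraries with little Kat7 mRNA. Of the 9 genes, 6 were lower in every mutant library than in any wild type library: Iigp1, Irgm1, Igtp, Gbp3, Gbp6 and Gbp7. Over all tested genes the share with such a separation is 18.8%. These 6 were also the ones called lower, none was called higher, and the background share of lower calls is 15.8%. Of the 7 tested, 5 were called lower with a log2 fold change under -1.5, against a background of 1.56% (3.79% under -1). Irgm2 was tested and not called. Gbp2 and Gbp9 did not pass the filter, and their levels were close in both genotypes. Gbp3, Gbp6 and Gbp7 reached the filter's level in all 3 wild type libraries but in only 1 mutant library each, so they could enter the test mainly by being high in wild type. In bulk RNA, fewer cells of an expressing type and less RNA per cell cannot be told apart.

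Among the effector IRGs, Iigp1 had 135, 160 and 187 counts in wild type replicates 1 to 3, and 21, 21, 19 and 25 counts in mutant replicates 1 to 4. All wild type libraries were far above all mutant libraries, and the mutants lay close to each other. Wild type libraries averaged 18.5 ± 2.57 CPM (SD, n = 3). Mutants averaged 2.54 ± 0.352 CPM (SD, n = 4), or 13.7% of that (exact binomial interval at 95%, 10.8 to 17.3). Its log2 fold change of mutant over wild type was -2.86 ± 0.16 (SE), the largest fall among the 9. Binomial intervals here cover counting error only.

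Irgm1 is the regulatory IRG best known from defence against mycobacteria and from autophagy. Its counts were 450, 450 and 551 in wild type libraries and 128, 137, 129 and 134 in mutant libraries. The mutant counts spanned only 9 reads, while wild type replicate 3 stood about 100 reads above the other 2. The wild type mean was 55.7 ± 5.78 CPM (SD, n = 3) and the mutant mean 15.6 ± 0.641 CPM (SD, n = 4), which left 28.0% of the wild type level (95% interval 25.3 to 30.9), and the log2 fold change was -1.84 ± 0.09 (SE). With the most counts of the 9 genes, it also had the smallest SE.

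Igtp, a regulatory IRG that localizes to the endoplasmic reticulum and lipid droplets, had 29, 42 and 45 counts in wild type and 26, 22, 22 and 24 counts in mutant libraries. The groups did not overlap, but wild type replicate 1 was only 3 reads above the highest mutant. The means were 4.44 ± 0.880 CPM (SD, n = 3) and 2.78 ± 0.242 CPM (SD, n = 4), the mutant level was 62.3% of wild type (95% interval 46.9 to 82.5), and the log2 fold change was -0.68 ± 0.21 (SE). The call was lost when wild type replicate 2 (-0.62) or wild type replicate 3 (-0.57) was left out, and with DESeq2 (-0.68).

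Irgm2, a regulatory IRG associated with the Golgi and with restraint of the non-canonical inflammasome, had 17, 20 and 13 counts in wild type and 8, 14, 15 and 10 counts in mutant libraries. The groups overlapped, since 2 mutants were above wild type replicate 3. Its means were 1.92 ± 0.416 CPM (SD, n = 3) and 1.39 ± 0.381 CPM (SD, n = 4), with a log2 fold change of -0.47 ± 0.30 (SE). The mutant level was 72.2% of wild type, and the interval of 47.5 to 109.8 includes equal levels as well as a loss of the size seen for Igtp.

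The GBPs held fewer reads than Iigp1 and Irgm1. Gbp3 had 29, 30 and 48 counts in wild type and 11, 4, 3 and 3 counts in mutant libraries. Mutant replicate 1 was well above the other 3 mutants and still below every wild type library. The means were 4.10 ± 1.15 CPM (SD, n = 3) and 0.617 ± 0.447 CPM (SD, n = 4), 15.1% of wild type (95% interval 8.97 to 24.2), with a log2 fold change of -2.70 ± 0.35 (SE). When mutant replicate 1 was left out, the log2 fold change was -3.33.

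Gbp7, which is known for helping to deliver antimicrobial cargo to bacterial vacuoles, had 21, 24 and 31 counts in wild type and 4, 8, 5 and 11 counts in mutant libraries. Wild type libraries averaged 2.91 ± 0.527 CPM (SD, n = 3) and mutants 0.831 ± 0.392 CPM (SD, n = 4), with a log2 fold change of -1.80 ± 0.32 (SE). The highest mutant was replicate 4, at 11 counts against a lowest wild type count of 21. Gbp7 is expressed from the chromosome 3 cluster next to Gbp3, and the mutant level of 28.3% (95% interval 17.7 to 44.2) was close to that of Irgm1.

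Gbp6 lies in the chromosome 5 cluster. It had 25, 36 and 32 counts in wild type and 9, 9, 4 and 15 counts in mutant libraries, with no overlap. The mutant mean of 1.10 ± 0.558 CPM (SD, n = 4) was 30.6% of the wild type mean of 3.56 ± 0.577 CPM (SD, n = 3), with an interval of 20.3 to 45.2% and a log2 fold change of -1.69 ± 0.31 (SE). Mutant replicate 4 was again the highest mutant. Of all 50-base stretches in annotated Gbp6 transcripts, 49.9% also occur in another counted gene, mostly Gbp10 (45.9%), so the reads of this pair may have been split or shared by the authors' counting and the Gbp6 values are uncertain.

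Gbp2, one of the best studied GBPs in the attack on Toxoplasma and cytosolic bacteria, had 2, 5 and 8 counts in wild type and 4, 5, 5 and 6 counts in mutant libraries. The mutant libraries all lay within the wild type range. The means were 0.571 ± 0.333 CPM (SD, n = 3) and 0.592 ± 0.109 CPM (SD, n = 4). At this depth the ratio of 102.5% has an interval of 49.9 to 215%. That interval includes a loss as large as that of Igtp. It does not include one of the size seen for Iigp1, Irgm1, Gbp3, Gbp6 or Gbp7, but it leaves out variation between animals.

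Gbp9 had 4, 3 and 3 counts in wild type and 3, 4, 4 and 2 counts in mutant libraries. The groups overlapped, at 0.385 ± 0.077 CPM (SD, n = 3) and 0.382 ± 0.108 CPM (SD, n = 4). The ratio of 99.9% had an interval of 40.5 to 255%. Its neighbours in the chromosome 5 cluster, Gbp8 and Gbp4, also had few reads, with at most 4 and 7 counts in a library.

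**Figure D2:**
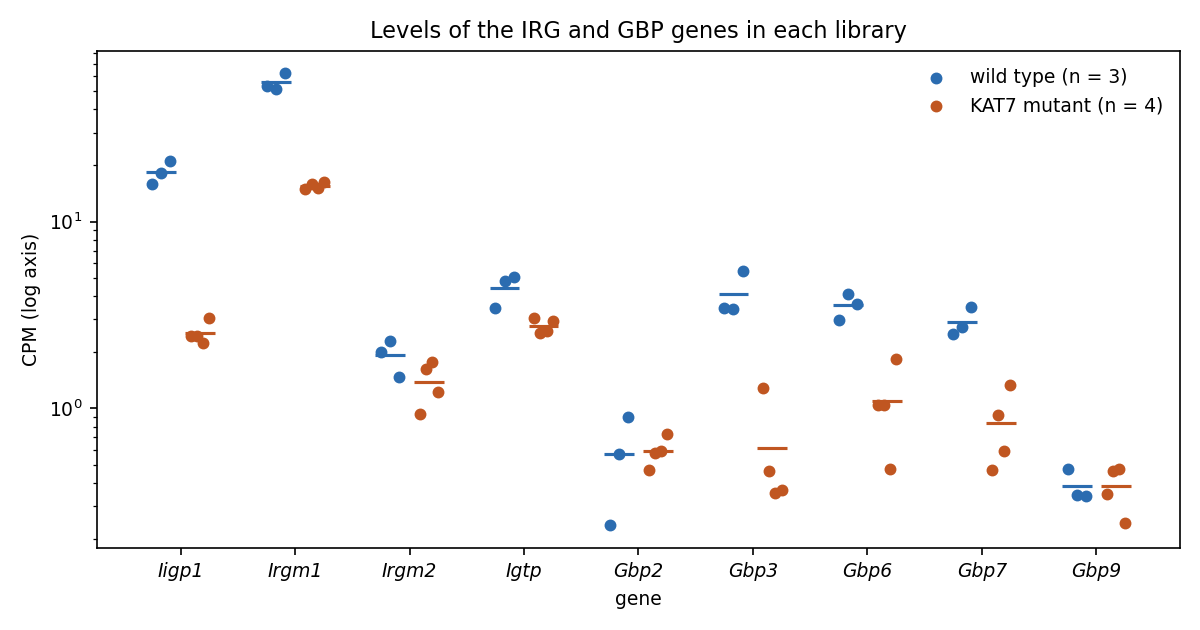
CPM (counts scaled to a common library size, log axis) of the 9 IRG and GBP genes in each library; points are libraries (blue, 3 wild type; orange, 4 KAT7 mutant) and short lines are group means. The colours are fully separate for Iigp1, Irgm1, Igtp, Gbp3, Gbp6 and Gbp7 and overlap for Irgm2, Gbp2 and Gbp9.

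Variation among libraries of 1 genotype was not the same for all 9 genes. Wild type replicate 3 had the highest wild type CPM in 6 of the 9 genes and wild type replicate 1 the lowest in 5. Among mutants, replicate 4 was the highest in 5. For Irgm1 the chi-square per degree of freedom of the counts was 5.26 across wild type libraries and 0.221 across mutants, where counting noise alone gives about 1, and for Iigp1 the values were 3.08 and 0.404. A spread of equal relative size is harder to see in fewer counts, and both genes had fewer counts in mutants. In these abundant members, with that limit, the spread between wild type animals was above counting noise, and that between mutant animals was not. The reverse held for Gbp6, at 0.798 across wild type and 2.37 across mutant libraries, and Gbp3 was above 1 in both (2.82 and 2.75). These ratios rest on 3 and 4 libraries and were not tested against each other.

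Levels per length were compared as RPKM, which scales CPM by gene length, from the deposited gene lengths. In wild type libraries Irgm1 was highest at 25.0 RPKM (range 23.1 to 28.0), followed by Iigp1 at 5.90 RPKM (5.12 to 6.75). Igtp followed at 2.19 RPKM (1.70 to 2.51), which overlapped Gbp3 at 1.55 RPKM (1.30 to 2.05). The order went on with Gbp6 at 0.826 RPKM and Irgm2 at 0.547 RPKM, whose range overlapped that of Gbp7 at 0.524 RPKM. Gbp2 at 0.233 RPKM and Gbp9 at 0.106 RPKM were lowest and overlapped each other. Irgm1 thus held most of the summed length-scaled signal of these 9 genes in wild type libraries.

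The order was different in mutants. Irgm1 was still highest, at 7.00 RPKM (range 6.71 to 7.34), but Igtp at 1.37 RPKM was above Iigp1 at 0.813 RPKM, and these 3 did not overlap. Below them came Irgm2 (0.394 RPKM), Gbp6 (0.255 RPKM), Gbp2 (0.241 RPKM), Gbp3 (0.234 RPKM), Gbp7 (0.150 RPKM) and Gbp9 (0.105 RPKM), each overlapping the next. Gbp3, above Gbp6 in wild type, was in mutants at a level that could not be told from that of Gbp2.

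**Figure D3:**
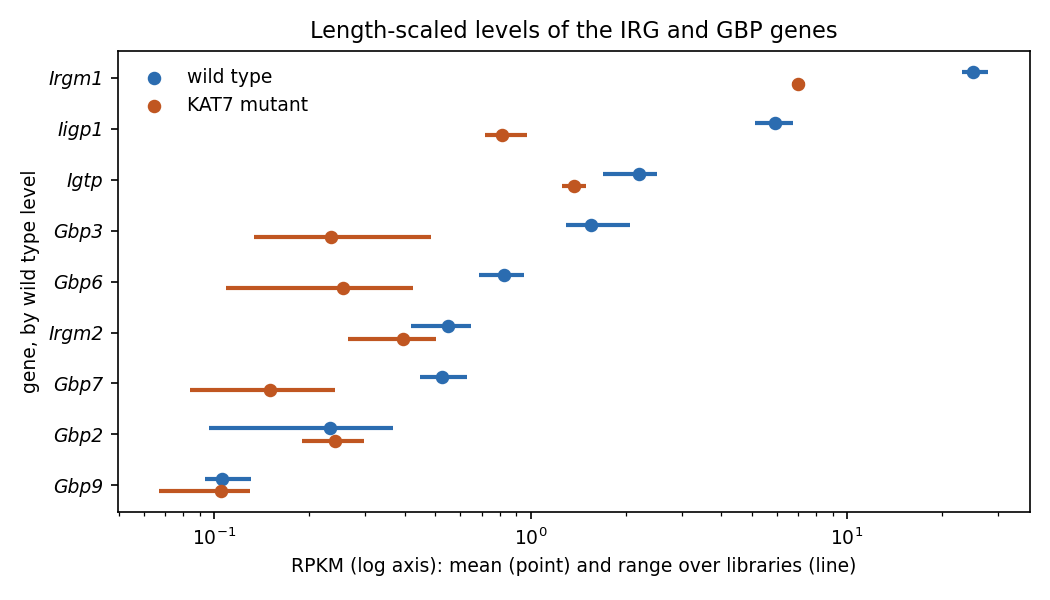
Length-scaled levels (RPKM, log axis) of the 9 genes, ordered by their wild type level; points are means and lines the range over 3 wild type (blue) or 4 KAT7 mutant (orange) libraries. Irgm1 is highest in both genotypes, at 25.0 and 7.00 RPKM, and Iigp1 drops below Igtp in the mutants.

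Relatives of the 9 genes were examined from a list of 23 other IRG, GBP and very large inducible GTPase genes, of which 20 were in the count table and 5 were tested. In mutants 2 of the 5 were called lower and none higher, with a median log2 fold change of -0.72, against 0.0025 over all tested genes. Both called genes, Gm4951 and Gbp10, reached the filter's level in all 3 wild type libraries and in 0 mutant libraries, so they entered the test only by being high in wild type, and their calls and the median carry that limit. Gm4951, an IRG-family gene (also called Ifgga2) on chromosome 18, the chromosome of Iigp1, had 20, 22 and 26 counts in wild type and 6, 7, 2 and 1 counts in mutant libraries. Its log2 fold change was -2.43 ± 0.39 (SE; edgeR adjusted p = 7.54e-05). Only 3.35% of its 50-base stretches occur in Iigp1.

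Gbp10 had 10, 12 and 12 counts in wild type and 6, 3, 4 and 7 counts in mutant libraries, and was lower by a log2 fold change of -1.13 ± 0.38 (SE; edgeR adjusted p = 0.0328). The Gbp10 call was lost with DESeq2 and without any 1 of the wild type libraries, mutant replicate 2 or mutant replicate 3, and 73.3% of its 50-base stretches occur in Gbp6. Gvin1, a very large interferon-inducible GTPase gene, had a log2 fold change of -0.72 (adjusted p = 0.0839) and was called lower only when mutant replicate 1 was left out. Gm4070 (-0.13) and Irgq (0.03), a divergent IRG-like gene, were not called. Irgq, at 210 ± 1.42 CPM (SD, n = 3) in wild type, was far more abundant than any of the 9 genes. Gbp5, an inducible GBP linked to the NLRP3 inflammasome, had 0 counts in all libraries.

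**Figure D4:**
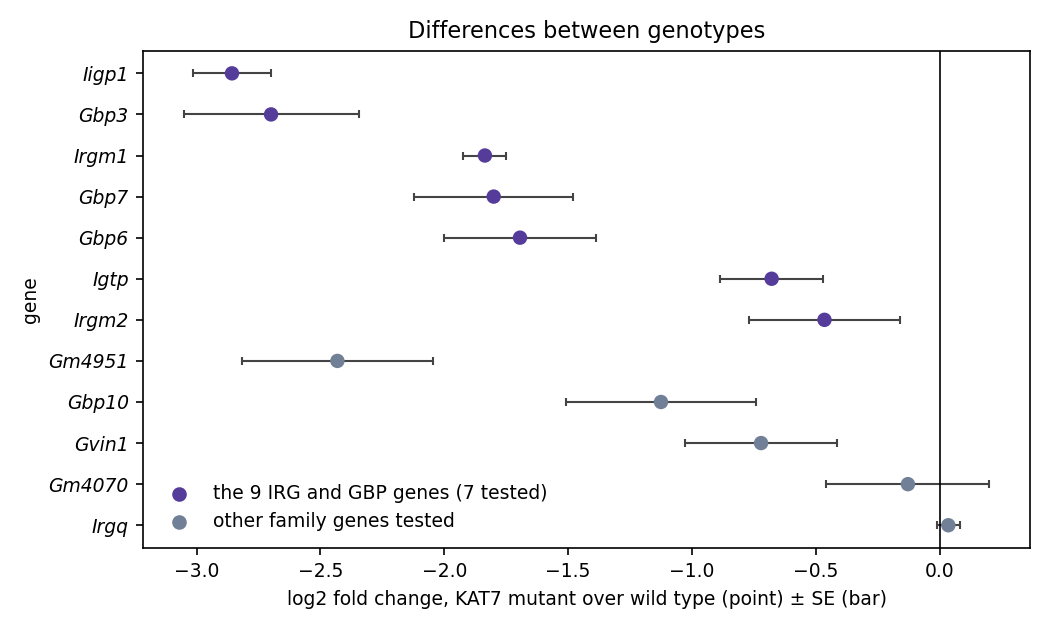
Log2 fold change of KAT7 mutant over wild type (points) with its SE (bars) for the 7 tested IRG and GBP genes (purple) and 5 tested relatives (grey). Iigp1 (-2.86) and Gbp3 (-2.70) lie farthest to the left, and Irgm2, Gm4070 and Irgq lie nearest to 0.

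Genome neighbours were read from the gene order of the RefSeq table. Irgm2 and Igtp are next to each other, as are Gbp7 and Gbp3, while Gbp2 is separated from Gbp3 by Gbp2b, which had 1 count in all libraries together. Most of the other neighbours had too few reads to be tested. Trim7, an E3 ubiquitin ligase gene beside Irgm1, had 164, 210 and 194 counts in wild type and 119, 140, 107 and 104 counts in mutant libraries, and fell by a log2 fold change of -0.65 ± 0.11 (SE; edgeR adjusted p = 0.000196). Lrrc8b, a volume-regulated anion channel subunit gene after Gbp6, had a log2 fold change of 0.11 and was not called (adjusted p = 0.217).

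The genes whose profile over the 7 libraries was most like the mean of the 7 tested IRG and GBP genes were Plcd1, A830018L16Rik, Pappa2, Zfp660, Mx2 and Acads. The measure was the root mean square distance of centred log2 CPM, which was between 0.0873 (Plcd1) and 0.139 (Acads). Their log2 fold changes were -1.68, -1.64, -1.70, -1.68, -1.89 and -1.51 in that order. The mean profile is mainly the difference between genotypes, so falls of this size follow from how these genes were picked. Of the 6, Mx2 alone stood in an interferon pathway list. Among the members, Irgm1 was nearest to the mean profile (0.147) and Irgm2 farthest (0.693).

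Genes of the interferon pathway were then described from 12 lists, with the 9 genes left out. Over these lists, 132 genes were tested, of which 39 were called lower and 13 higher in mutants. Over all tested genes, 15.8% were called lower and 13.1% higher. The lists were drawn up when an interferon response list was known to be lower in these data, so their counts are not independent evidence of a direction.

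Of the 12 interferon ligand genes, 8 had 0 counts in every library. The other 4 had 5 counts in all, 3 in wild type and 2 in mutant libraries, never more than 1 in a library, so that none could be tested and a difference in ligand mRNA was not detectable at this depth. Of 5 tested receptor genes, 1 was called: Ifngr2, a chain of the interferon gamma receptor, at -0.17 ± 0.06 (log2 fold change, SE). The Ifngr2 call was lost without wild type replicate 3, without mutant replicate 1 and with DESeq2.

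The 7 JAK-STAT transducers moved in both directions, with 3 lower and 2 higher and a median log2 fold change of -0.10. Irf9, a DNA-binding partner of STAT2, was at 128 ± 8.06 CPM (SD, n = 3) in wild type libraries and lower in mutants, at 88.3 ± 2.55 CPM (SD, n = 4); its log2 fold change was -0.54 ± 0.06 (SE). Stat3 (-0.44) and Jak1 (-0.18) were also lower, the latter not without wild type replicate 2 or mutant replicate 4. Stat2 (0.35) and Jak2 (0.23) were higher.

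Of 9 tested genes in the list of interferon regulatory factors, 2 were lower and 2 higher (median log2 fold change -0.03). Irf3, which transmits signals from nucleic acid sensors, was at -0.71 ± 0.11 (SE), and Irf7, an amplifier of type I interferon, was at -0.34 ± 0.10 (SE) and not called without wild type replicate 3. The corepressor genes Irf2bp2 (0.34) and Irf2bpl (0.28) were higher. Irf1, a principal activator of GBP genes singled out here after its values were seen, had 21, 23 and 26 counts in wild type and 25, 25, 20 and 17 counts in mutant libraries, with a log2 fold change of -0.07 ± 0.23 (SE) that was not called and changed sign without wild type replicate 3 or mutant replicate 4.

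Among 14 inhibitors of interferon signalling, Usp18, an inhibitor of type I interferon receptor signalling that is itself interferon-induced, was the 1 called lower, at -0.96 ± 0.09 (SE; 61.9 ± 7.79 to 31.8 ± 2.71 CPM, SD). The higher calls were Socs2 (0.42) and the phosphatase gene Ptpn1 (0.16), and that of Ptpn1 was lost without wild type replicate 1 or 2 or mutant replicate 2 or 4, and with DESeq2. The list's median log2 fold change was 0.03. Of 16 nucleic acid sensing genes, Mavs, the mitochondrial adaptor of RNA sensors (-1.49 ± 0.35, SE), and Samhd1, a dNTP hydrolase (-0.73 ± 0.12, SE), were lower. Mavs reached the filter's level in 3 wild type and 0 mutant libraries, so it entered the test only by being high in wild type. Adar, an RNA editing enzyme, was higher (0.23), though not without wild type replicate 1 or mutant replicate 4. Without wild type replicate 1 or 2 or mutant replicate 1, 2 genes of this list were called higher.

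The list of other interferon-induced effectors had the most calls, with 17 of 34 tested genes lower and 1 higher. Its median log2 fold change was -0.54, against 0.0025 over all tested genes. The summed CPM of the list was 740 to 995 in wild type and 373 to 413 in mutant libraries, without overlap. Oasl2, an oligoadenylate synthetase-like gene, accounted for a large share of that sum, with 2991, 3717 and 4128 counts in wild type and 583, 756, 802 and 907 counts in mutant libraries, a log2 fold change of -2.20 ± 0.10 (SE; edgeR adjusted p = 5.44e-12).

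Trim21, a cytosolic antibody receptor and ubiquitin ligase that can act with IRGs and GBPs on vacuoles, had 29, 40 and 51 counts in wild type and 9, 3, 2 and 3 counts in mutant libraries. Its log2 fold change was -3.16 ± 0.35 (SE). Trim21, like Mavs, reached the filter's level in 3 wild type and 0 mutant libraries. Ifitm2, a membrane protein that blocks viral entry, was at -2.39 ± 0.17 (SE), Ifi27 at -1.74 ± 0.20 (SE) and Ifit1, which binds viral RNA, at -1.64 ± 0.18 (SE). Ifit2, of the same family as Ifit1, was the gene called higher: it had 66, 66 and 55 counts in wild type and 181, 159, 171 and 150 counts in mutant libraries, a log2 fold change of 1.44 ± 0.12 (SE; edgeR adjusted p = 3.04e-08). Interferon-induced genes thus did not all differ in 1 direction.

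Of 11 tested dynamin-like GTPase genes, the broader structural class to which GBPs belong, 2 were lower and 1 higher (median log2 fold change -0.13). Mx2, an interferon-induced GTPase gene, had 55, 73 and 93 counts in wild type and 21, 19, 16 and 21 counts in mutant libraries. It fell by a log2 fold change of -1.89 ± 0.20 (SE, edgeR adjusted p = 5.96e-07). Dnm3, a neuronal dynamin, was at -0.53 ± 0.06 (SE). Atl2, an atlastin that shapes the endoplasmic reticulum, was higher (0.22), but not without wild type replicate 2, wild type replicate 3 or mutant replicate 3. Without wild type replicate 2, 4 genes of this list were called lower, and without wild type replicate 1, 2 were called higher.

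Genes of the type II interferon response and of antigen presentation were mixed, with 5 of 14 tested lower and 3 higher and a median log2 fold change of -0.16. The lower genes included the MHC class I heavy chain gene H2-D1 (-0.79 ± 0.10, SE), Tapbp, which loads peptides (-0.50 ± 0.08, SE), and the complement inhibitor gene Serping1 (-0.54 ± 0.15, SE). Higher were the chemokine gene Ccl5 (0.67 ± 0.16, SE), Cd274, which encodes PD-L1 (0.56 ± 0.16, SE), and the immunoproteasome gene Psmb10 (0.54 ± 0.14, SE). DESeq2 did not call Serping1 or Cd274.

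Autophagy and ubiquitin genes that direct IRGs and GBPs to vacuoles gave 4 of 15 tested lower and 1 higher (median log2 fold change 0.01). Besides Trim21, which also stands in the effector list, Gabarap (-0.33 ± 0.05, SE), an ATG8-family gene, Ube2l6 (-0.51 ± 0.18, SE), the conjugating enzyme for ISG15, and Atg12 (-0.18 ± 0.06, SE) were lower. Atg16l1, of the complex that attaches ATG8 proteins to membranes, was higher (0.43 ± 0.07, SE). The lower count was 2 with DESeq2, and without wild type replicate 1 or 3 or mutant replicate 2 or 4, since the calls of Ube2l6 and Atg12 were then lost. Without mutant replicate 3 or 4, 2 genes were called higher. Of 3 tested inflammasome partners, the cytokine gene Il18 was lower (-1.01 ± 0.27, SE) and the other 2 were not called (median log2 fold change 0.16).

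**Figure D5:**
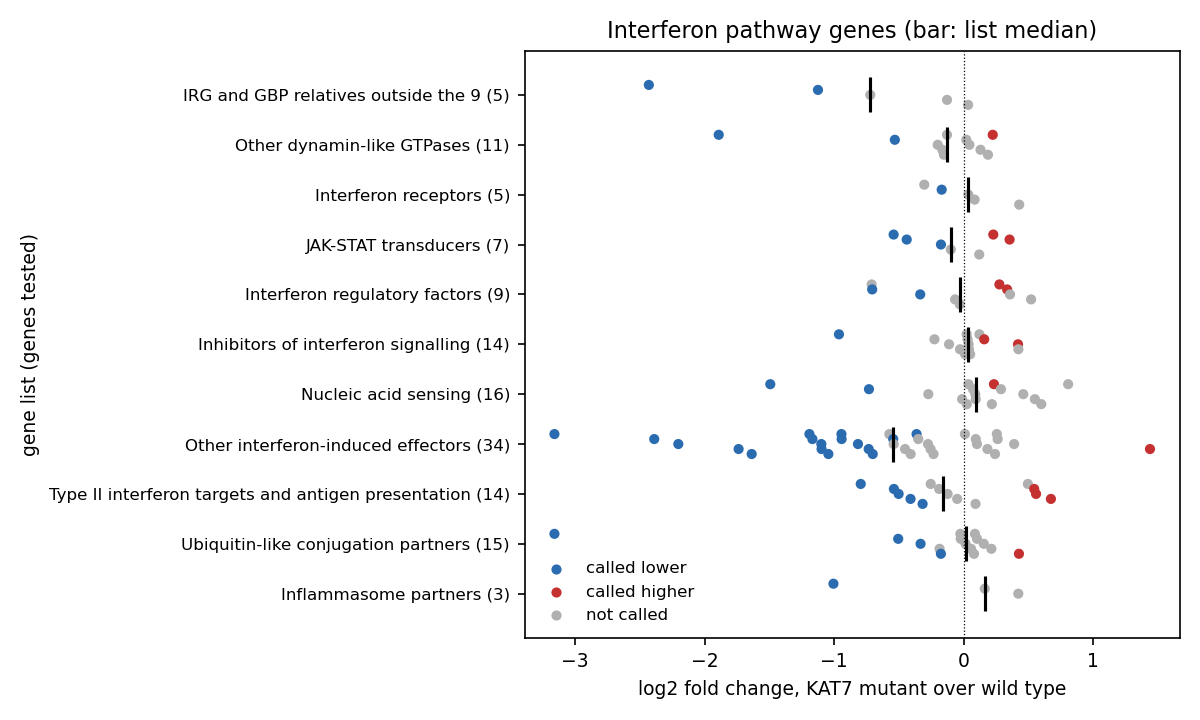
Log2 fold change of KAT7 mutant over wild type for tested genes of 11 lists related to interferon signalling, with the 9 IRG and GBP genes left out (the list of ligands had no tested gene); each point is 1 gene, blue called lower, red called higher, grey not called, and the black bar is the list's median. The effector list reaches from -3.16 (Trim21) to 1.44 (Ifit2) with a median of -0.54, while the medians of receptors, transducers and regulatory factors lie between -0.10 and 0.04.

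Markers of cells that can express these GTPases were measured in the same libraries. Summed CPM of 14 microglia and macrophage markers was 31.2 to 37.8 in wild type and 41.3 to 53.6 in mutant libraries, and 4 of 9 tested markers were called higher and none lower, among them Csf1r (1.05) and C1qb (0.71). Only 2 were higher with DESeq2 and without wild type replicate 1, mutant replicate 3 or mutant replicate 4, and 1 was called lower without mutant replicate 3. No microglia marker was at 0 in all libraries. For other leukocytes, summed CPM was 9.03 to 11.4 in wild type and 15.5 to 19.8 in mutants, both tested markers of 12 listed (Lyz2, 0.85, and Ptprc, 0.87) were higher, and Cd3e, Ms4a1, Nkg7, Ly6g, S100a8 and S100a9 were at 0 in all libraries. The Ptprc call was lost without wild type replicate 3. These immune markers were thus higher in the mutants, in which 6 of the 9 GTPases were lower.

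Radial glia markers were lower in mutants, with 6 of 9 tested genes lower and none higher, and their summed CPM was 312 to 333 in wild type and 236 to 277 in mutant libraries. No radial glia marker of the 10 was at 0 in all libraries. Of 5 tested astrocyte markers, 3 were lower and none higher, and summed CPM of the 7 listed was 147 to 155 in wild type and 123 to 149 in mutants. Of 5 tested endothelial markers, 1 was lower, Slco1c1 (-0.89), and summed CPM of the 11 listed was 13.4 to 15.4 in wild type and 9.91 to 13.4 in mutants, with Tie1 and Emcn at 0 in all libraries. Of 8 tested interneuron markers, 5 were higher and 1 lower, with summed CPM of 269 to 431 in wild type and 342 to 466 in mutants. Of 7 tested oligodendrocyte-lineage markers, 4 were higher and none lower, with summed CPM of 29.6 to 35.3 in wild type and 35.6 to 54.1 in mutants. No marker of either list was at 0 in all libraries. The part of any of these cell types in the levels of the 9 GTPases was not tested.

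Genes with the promoter core outside the 9 were compared with all genes. Of 346 other tested genes with the GAAA repeat in a promoter window, 68 (19.7%) were called lower and 41 (11.9%) higher. Over all 10086 tested genes with a promoter window these shares were 16.0% and 13.5%. The median log2 fold change was -0.0084 with the repeat and 0.0015 over all. Of 816 other tested genes with TTCNNNGAA, 117 (14.3%) were lower and 105 (12.9%) higher. The shares with either core were thus within 4 percentage points of the background, and no test of the difference was made.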

How the data were processed

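Gene expression was measured by polyA RNA-seq in 7 libraries. The authors deposited unnormalized counts for each gene, as whole numbers, beside its Entrez identifier and length. Per the submitters' processing notes, featureCounts and mm9 were used. For the aligner, annotation and strand, the setting is not given in the sources used here. Without a known strand, reads of overlapping or antisense genes cannot be separated.

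The members and all lists were chosen with earlier results of these data known. Symbols came from a RefSeq gene table of GRCm38.p6 (24176 of 26286 identifiers), used for names and gene order only. Shared 50-base stretches were counted in GENCODE transcripts.

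Counts were filtered with filterByExpr (minimum count 10), scaled by TMM (factors 0.9894 to 1.01) and tested in edgeR (version 4.0.16, under R 4.3.3) by two-sided quasi-likelihood F tests on genotype alone. Benjamini-Hochberg adjustment ran over 13681 genes, and calls needed an adjusted p under 0.05. Each SE was derived from the fold change and its F statistic. CPM and RPKM used TMM-scaled library sizes. The fit was also run on simulated data, with far fewer changed genes than were called here and none of the lowest counts. That run does not vouch for the calls. Other settings tried were DESeq2 (1.42.0), limma-voom (3.58.1), a robust fit, RLE or upper-quartile scaling, library size alone, no filter, a minimum CPM of 1 in 3 libraries, a replicate block, an adjusted p under 0.01, and leaving out each library.

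Named were the 9 genes, Kat7, tested relatives, up to 6 called genes per pathway list (or, with none called, the 2 most abundant), the 6 nearest profiles and genome neighbours. Marker genes and those marked in the text were named after their values were seen. A gene of the pathway lists is not reported here.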

Additional observations from a re-analysis of the deposited data

Results flagged for a closer look

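The CPM of Kat7 and of each of the 9 genes was checked within the 4 mutant libraries for a library far from the other 3, which made 10 groups, and 2 stood out. For normally distributed values, chance alone gives this for about 1 in 20 groups. Low counts such as these need not follow that rate. Gbp3 was at 1.28 CPM in mutant replicate 1 and at 0.354 to 0.463 CPM in the other 3 mutants. Kat7 was at 1.22 CPM in mutant replicate 4 and at 0.350 to 0.463 CPM in the other 3. Groups of 3 wild type libraries were not checked.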

How the results depend on the processing

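Under 17 alternatives, 5 to 6 of the 9 genes were called lower and none higher. Over all genes, 1532 to 2395 were called lower and 1034 to 1868 higher, and the lowest count of higher genes, 1034, came from an adjusted p under 0.01. Leaving out 1 library gave 1826 to 2212 lower and 1273 to 1776 higher genes. Among the pathway lists, 31 to 44 genes were lower and 9 to 17 higher. No fold change of the 7 tested members changed sign; Gbp2 and Gbp9 were not among them. Leaving out 1 library, the log2 fold change was -2.95 to -2.75 for Iigp1, -1.89 to -1.75 for Irgm1, -3.33 to -2.44 for Gbp3, -2.04 to -1.45 for Gbp6, -2.12 to -1.61 for Gbp7 and -0.63 to -0.32 for Irgm2, which was called in none. Igtp (-0.83 to -0.57) was not called at an adjusted p under 0.01, with DESeq2, or without wild type replicate 2 or 3; the cause was not tested.

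Wild type and mutant samples share replicate numbers 1 to 3. Same-numbered samples deviated together with r of 0.018, 0.012 and -0.029 across genes, so the numbers were not taken as pairing. With the replicate number as a block, 1943 genes were called lower and 1460 higher, with 35 and 14 in the pathway lists and 6 lower and 0 higher among the 9 genes. Gbp2 and Gbp9, with at most 8 counts in a library, are limited by depth.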
